A study of Mus musculus with 2 samples.

Results

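The microRNA genes examined here lie inside the 4 mouse Hox clusters, the runs of neighbouring homeobox genes that set positional identity along the body axis. They were taken by name from the annotation: Mir10a, Mir10b, Mir196a-1, Mir196a-2, Mir196b and Mir615, which are 6 of the 2202 miRNA genes in the count tables. The tables came from microRNA-seq of hearts of male 5xFAD/CAST mice, adults aged 8 to 10 months. 5xFAD is an amyloid model whose human transgenes are driven in neurons by the Thy1 promoter, and CAST is a wild-derived inbred strain. The labels describe one group with biological replicates 1 and 2, give no control genotype, and list a separate biosample but a shared donor entry for each replicate. Nothing in them says that the replicates were separate animals, so every spread given here, and every p-value, is a difference between these libraries and may be technical.

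Hox cluster miRNAs are processed from hairpins embedded among the Hox genes and, like them, are expressed by position along the head-to-tail axis of the embryo. miR-10 hairpins sit beside the Hox4 genes and miR-196 hairpins beside Hox9, and miR-615 lies within Hoxc5. Among their known targets are Hox messages themselves: miR-196 directs cleavage of Hoxb8 RNA, and miR-10 represses several Hox genes. In blood vessels miR-10 is also known as a regulator of endothelial inflammation and vessel growth.

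The mature sequences are shown because the relation between family members decides which reads can be told apart. Each is written 5′ to 3′ with the seed, bases 2 to 8, in capitals. The sequences are those of RefSeq on GRCm38.p6, the assembly also called mm10, where all 6 genes had mature entries.
miR-10a-5p: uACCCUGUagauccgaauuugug
miR-10b-5p: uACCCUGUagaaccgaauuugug
miR-196a-5p: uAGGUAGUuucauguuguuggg
miR-196b-5p: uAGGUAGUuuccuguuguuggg
miR-615-3p: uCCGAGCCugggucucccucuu
miR-615-5p: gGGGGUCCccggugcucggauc

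The miR-10 pair shares one seed, ACCCUGU, and the miR-196 family another, AGGUAGU. Among the 1679 mature miRNA names in the RefSeq table, the miR-10 seed was held by miR-10a-5p and miR-10b-5p alone, and the miR-196 seed by miR-196a-5p and miR-196b-5p alone. Neither miR-615 arm shared its seed with another mature miRNA. Counted from 1 at the 5′ end, miR-10a-5p differs from miR-10b-5p by 1 substitution, U12A, and miR-196a-5p differs from miR-196b-5p by A12C. The miR-196 seed AGGUAGU also occurs in let-7a-5p, where it starts at base 3 and not at base 2, so the seeds of the families are offset by a base.

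The hairpins of the miR-10 pair and of the miR-196a pair are shown next, with both mature arms in capitals.
Mir10a: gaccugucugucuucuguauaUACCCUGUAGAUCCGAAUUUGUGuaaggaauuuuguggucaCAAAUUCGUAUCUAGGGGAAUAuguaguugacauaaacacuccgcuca
Mir10b: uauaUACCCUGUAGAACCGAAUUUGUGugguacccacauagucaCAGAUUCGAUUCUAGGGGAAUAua
Mir196a-1: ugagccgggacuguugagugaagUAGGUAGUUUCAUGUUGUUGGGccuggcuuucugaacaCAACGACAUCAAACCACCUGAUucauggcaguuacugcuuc
Mir196a-2: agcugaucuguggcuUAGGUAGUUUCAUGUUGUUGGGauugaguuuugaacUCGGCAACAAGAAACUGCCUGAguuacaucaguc

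The 5p arm of miR-196a is identical, all 22 bases, in Mir196a-1 and Mir196a-2, so a read of that arm cannot be given to either hairpin. Their 3p arms differ, and a read of a 3p arm can be. Mir10a and Mir10b share at most 15 bases in a row, and the longest stretch that Mir196b shares with any other hairpin of the tables is 12 bases. For Mir615 it is 14 bases. A stretch of at least 20 bases shared with another hairpin was therefore found only between Mir196a-1 and Mir196a-2. A shared stretch ends at the first mismatch, so it does not show arms that differ by 1 base. The 5p arms of miR-10a and miR-10b are such a pair, as are those of miR-196a and miR-196b.

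The genes are placed on mm10 with the GENCODE M21 annotation, and all are transcribed in the direction of their Hox neighbours. In the HoxB cluster Mir10a (ENSMUSG00000065519.1, chr11:96317165-96317274) is intergenic, 993 bases ahead of Hoxb4. Mir196a-1 (ENSMUSG00000065546.1, chr11:96265164-96265265) is also intergenic, 6192 bases ahead of Hoxb9. In the HoxD cluster Mir10b (ENSMUSG00000065500.3, chr2:74726070-74726137) lies in introns of Hoxd4 and Hoxd3 transcripts. In the HoxC cluster Mir196a-2 (ENSMUSG00000065488.2, chr15:102973350-102973434) lies between Hoxc10 and Hoxc9 and within an intron of a long Hoxc5 transcript. Mir615 (ENSMUSG00000076010.1, chr15:103014910-103015001) lies in an intron of Hoxc5. In the HoxA cluster Mir196b (ENSMUSG00000065443.1, chr6:52230081-52230165, minus strand) overlaps exons of 2 Hoxa9 transcripts and an intron of another. One more annotated miRNA gene lies within a cluster, Gm44463 in HoxD on the other strand, and it had 0 counts in both libraries.

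**Figure D1:**
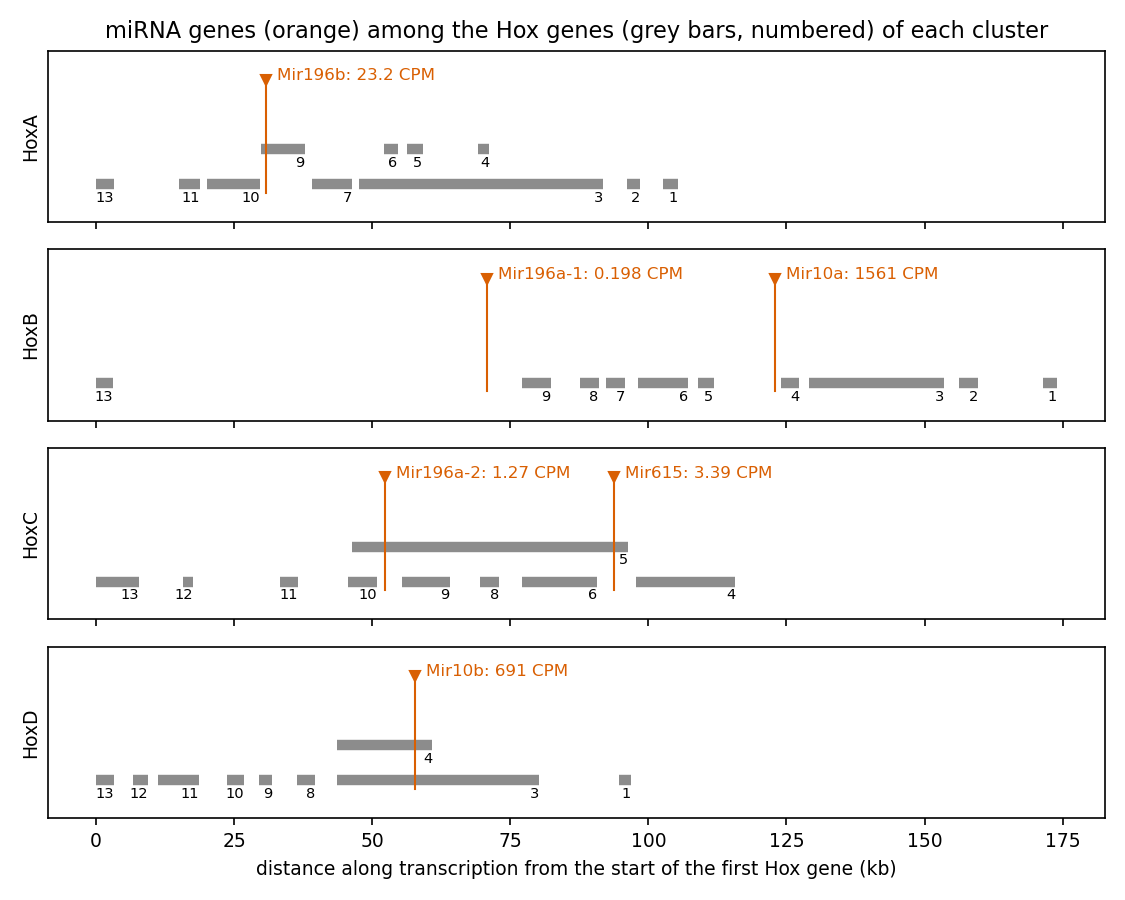
Positions of the miRNA genes (orange markers) among the Hox genes (grey bars, labelled with the paralog number) in each cluster, as distance in kb along the direction of transcription from the start of the first Hox gene, with each miRNA gene's mean level over the 2 libraries in CPM (sense reads per 1000000 sense reads of a library). Mir10a and Mir10b, at Hox4, stand at 1561 and 691 CPM, and the other 4 genes between 0.198 and 23.2 CPM.

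Levels are given as CPM: the sense reads of a hairpin per 1000000 sense reads that its library gave to any miRNA gene. These totals were 3889280 reads in replicate 1 and 5058613 in replicate 2. A further 42.3% and 46.8% of all reads had aligned to several places and were given to no gene. Levels and ranks here therefore place a gene among reads with a single match, not among all miRNA reads of the heart. Values with an SD are the mean and SD of the libraries, n = 2. As a check of the labelled tissue, the heart muscle genes Mir208a and Mir499 stood at 2685 ± 1697 and 4310 ± 2232 CPM. The endothelial Mir126a stood at 87451 ± 476 CPM and the skeletal muscle Mir206 at 13.3 ± 2.30 CPM.

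The heart libraries held the miR-10 pair at a moderate level, Mir196b at a low level and Mir615 close to the detection minimum. Together the 6 genes held 8418 sense reads in replicate 1 and 12125 in replicate 2, or 2281 ± 164 CPM. Their share of sense reads was 0.216% in replicate 1, with a 95% Clopper-Pearson interval of 0.212 to 0.221. In replicate 2 it was 0.240%, with an interval of 0.235 to 0.244. Mir10a and Mir10b supplied 8316 and 11974 of those reads. Detection meant 10 or more reads in each library. Of the 6 genes 4 were detected, 66.7%, against 325 of all 2202 genes, 14.8%.

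Mir10a was the most abundant Hox cluster miRNA gene. It had 5579 reads in replicate 1 and 8538 in replicate 2, which is 1434 and 1688 CPM. It ranked 51st and 45th among the 325 detected genes. Mir10b had 2737 and 3436 reads, or 704 and 679 CPM, and ranked 71st and 67th. Both lay far above the median detected gene, at 49.2 CPM.

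Mir196b, the HoxA member, was the only miR-196 gene detected. It had 85 and 124 reads, 21.9 CPM in replicate 1 (95% interval 17.5 to 27.0) and 24.5 CPM in replicate 2 (20.4 to 29.2). It stood below the median detected gene, at rank 204 and 200. Mir10a exceeded it 65.6-fold in replicate 1 (53.0 to 82.3) and 68.9-fold in replicate 2 (57.7 to 82.9). The 5p arms of miR-196b and miR-196a differ by 1 base. Whether sequencing errors moved miR-196a reads to Mir196b was not tested.

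Mir615 just passed the minimum, with 11 and 20 reads. These are 2.83 CPM (95% interval 1.41 to 5.06) and 3.95 CPM (2.42 to 6.11). It ranked 318th and 297th of the detected genes. Mir615 lies within Hoxc5, 3029 bases past Hoxc6 and 3933 bases ahead of Hoxc4.

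Mir196a-1 had 0 reads in replicate 1, where a count of 0 is taken to allow up to 3 counts, or 0.771 CPM, and 2 reads in replicate 2. Mir196a-2 had 6 and 5 reads, 1.54 and 0.988 CPM. A read confined to the shared arm matches both of the hairpins printed above, and the tables give reads with several matches to no gene, so these counts are no measure of miR-196a in this tissue. How many such reads the libraries held was not tested.

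From high to low the order was Mir10a, Mir10b, Mir196b, Mir615, Mir196a-2, Mir196a-1 in both libraries. The 95% counting intervals of neighbours in that order were apart from Mir10a down to Mir615 in both libraries. Those of Mir615 and Mir196a-2 overlapped in replicate 1 (1.41 to 5.06 against 0.566 to 3.36 CPM). The intervals of Mir196a-2 and Mir196a-1 overlapped in both libraries, with 6 and 0 reads in replicate 1 and 5 and 2 in replicate 2. Overlap of intervals is not a test of difference, and none was run between these genes. The intervals cover counting error only and take every read as independent. PCR reads are not independent molecules, so the intervals may be too narrow even for that error.

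**Figure D2:**
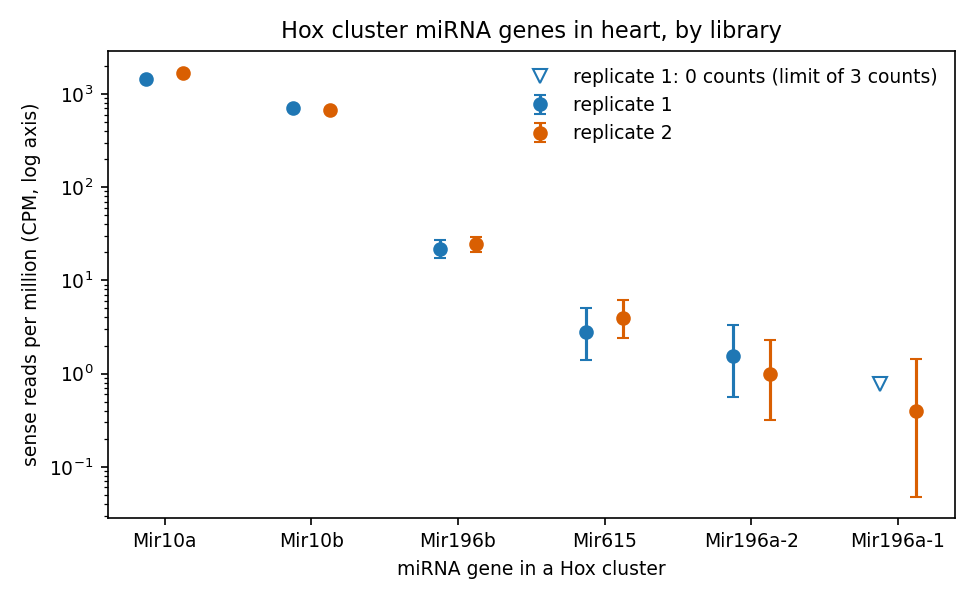
Level of each Hox cluster miRNA gene in replicate 1 (blue) and replicate 2 (orange), in CPM on a log axis. Bars are 95% Clopper-Pearson intervals and the open triangle is the limit of 3 counts where replicate 1 had 0. The libraries give the genes the same order, from 1434 and 1688 CPM for Mir10a down to 0 and 2 reads for Mir196a-1.

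By cluster, HoxB held 1561 ± 179 CPM, HoxD 691 ± 17.3 CPM, HoxA 23.2 ± 1.88 CPM and HoxC 4.66 ± 0.404 CPM. The HoxB value is that of Mir10a, and HoxD has Mir10b alone. HoxC, which holds both Mir196a-2 and Mir615, had 17 and 25 reads in all. HoxB and HoxC each hold a miR-196a hairpin, so both values may lack reads of the shared miR-196a arm, whose number was not tested.

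The pair of miR-10 genes was compared within each library, where no scaling between libraries is needed. Mir10a exceeded Mir10b 2.04-fold in replicate 1 (95% exact interval 1.95 to 2.13) and 2.48-fold in replicate 2 (2.39 to 2.59). The intervals do not overlap. By a two-sided Fisher's exact test on the reads the ratios differed between the libraries (p = 1.47e-10, adjusted p = 2.58e-10 over the 7 ratios compared between libraries). That test compares the reads of these libraries and takes no account of the spread between samples. The 5p arms differ by a single base, and exchange of reads between them through sequencing errors was not tested. The Mir10a hairpin is annotated at 110 bases and that of Mir10b at 68. In both genes the 5p arm has 23 bases and the 3p arm 22, so these lengths differ outside the mature arms. Read as counts per hairpin base, Mir10b reached 0.722 of Mir10a on average, against 0.447 of it as counts, and Mir10a remained the higher in both libraries.

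For the ratios that involve the rarer genes the counting intervals of the libraries overlapped. Mir10a over Mir196b, given above, did not pass the test (adjusted p = 0.776, Fisher's exact test). Mir10b over Mir196b was 32.2 and 27.7, with intervals 25.9 to 40.4 and 23.2 to 33.4 (adjusted p = 0.450, Fisher's exact test). Mir196b over Mir615 was 7.73 and 6.20, with intervals 4.11 to 16.1 and 3.85 to 10.5 (adjusted p = 0.776, Fisher's exact test).

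The rank order of all detected genes gives these levels a scale, within the reads that were given to a gene. A gene whose mature sequence has several copies can lose reads and rank too low. In level over both libraries, measured as distance in log2(CPM + 1), the genes nearest to Mir10a were Mir146 at 1674 ± 173 CPM, a gene of immune and endothelial cells, and Mir145a at 1493 ± 41.8 CPM, a gene of smooth muscle. Nearest to Mir10b were Mirlet7a-1 at 728 ± 18.1 CPM and Mir20a, of the miR-17-92 cluster, at 688 ± 83.6 CPM. Mir196b stood nearest to Mir92b and Mir299a, at 24.3 ± 1.99 and 25.2 ± 1.50 CPM. Mir615 stood nearest to Gm27881 and Mir7068, at 3.62 ± 0.754 and 3.16 ± 0.838 CPM. Likeness over 2 libraries describes level alone. Whether these neighbours share a mature sequence with another hairpin, and so lack reads, was not tested.

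**Figure D3:**
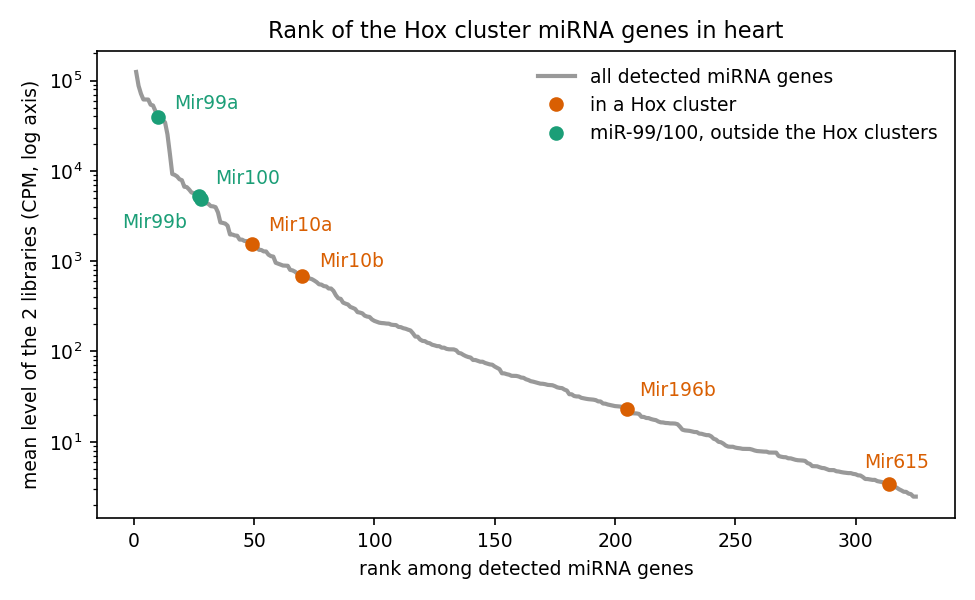
Mean level of the 2 libraries in CPM (log axis) against rank for the 325 detected miRNA genes (grey line), with the detected Hox cluster genes in orange and the related genes Mir99a, Mir99b and Mir100 in green. Mir10a and Mir10b stand at ranks 49 and 70, Mir196b at 205 and Mir615 at 314, and the 3 related genes lie between ranks 10 and 28.

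miR-10 has relatives outside the Hox clusters. miR-99a, miR-99b and miR-100, known as repressors of mTOR, come from hairpins on chromosomes 16, 17 and 9. They share a seed of their own, ACCCGUA, which lacks a base of the miR-10 seed, and the stretch GUAGAUCCGAA of miR-10a-5p recurs in miR-100-5p. The seeds can be read against those of miR-10 in these sequences.
miR-99a-5p: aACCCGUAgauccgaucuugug
miR-99b-5p: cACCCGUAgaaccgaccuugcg
miR-100-5p: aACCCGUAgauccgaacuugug

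All 3 relatives were more abundant than Mir10a in both libraries. Mir99a had 171660 and 173001 reads, or 44137 and 34199 CPM. Mir100 had 23560 and 22625 reads, or 6058 and 4473 CPM, and Mir99b 27452 and 13713 reads, or 7058 and 2711 CPM. Of the reads of the 5 genes together, the Hox cluster pair supplied 3.60% in replicate 1 and 5.41% in replicate 2. The Clopper-Pearson intervals at 95% ran from 3.52 to 3.68 and from 5.32 to 5.51. Mir99a alone exceeded the pair 20.6-fold in replicate 1 and 14.4-fold in replicate 2. Mir99b exceeded it 3.30-fold in replicate 1 and 1.15-fold in replicate 2, the widest change of any ratio compared. None of the 5 hairpins shares a stretch of 20 bases with another. The 5p arms of miR-99a and miR-100 still differ by only 1 base, as do those of the miR-10 pair. Exchange of reads between such arms through sequencing errors was not tested.

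Replicate 2 was then set against replicate 1 for every gene with at least 10 reads in all, by an exact binomial test, two-sided, against the library sizes that TMM gave. TMM sizes correct the totals for a few very abundant genes. Of the 412 genes tested, 45.4% were called at an adjusted p below 0.05, and 22.8% were called higher in replicate 2. Of the 5 Hox cluster genes tested 1 was called, Mir10a, and it was higher in replicate 2. The median log2 ratio of the 5 was 0.28, against -0.0038 for all tested genes. With so few genes that median is the value of Mir196b, which was not called. Mir196a-1 had too few reads to be tested.

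After TMM scaling, Mir10a was 1.28-fold higher in replicate 2 (log2 ratio 0.36, adjusted p = 2.79e-47, exact binomial test). With its high count the test resolves small differences: 50.2% of detected genes differed by as much or more. The same call was lost (adjusted p = 1.00) in edgeR's exact negative binomial test, whose spread is estimated from these very libraries and which called 3 of the 412 genes. Mir10b differed by a log2 ratio of 0.07 (adjusted p = 0.0925, exact binomial test), and its ratio was -0.05 with total counts, where the median of detected genes moved by -0.12. With DESeq2 size factors Mir10b was called, at 0.10 (adjusted p = 0.0132, exact binomial test), so its direction is not settled.

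The other tested genes did not pass. Mir196b had a log2 ratio of 0.28 (adjusted p = 0.269), Mir615 of 0.47 (adjusted p = 0.410) and Mir196a-2 of -0.29 (adjusted p = 0.701), all by the exact binomial test. At 11 to 209 reads over both libraries, differences of this size were not detectable. Among the relatives, Mir99a, Mir100 and Mir99b were each called higher in replicate 1, with log2 ratios of -0.24, -0.31 and -1.26.

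**Figure D4:**
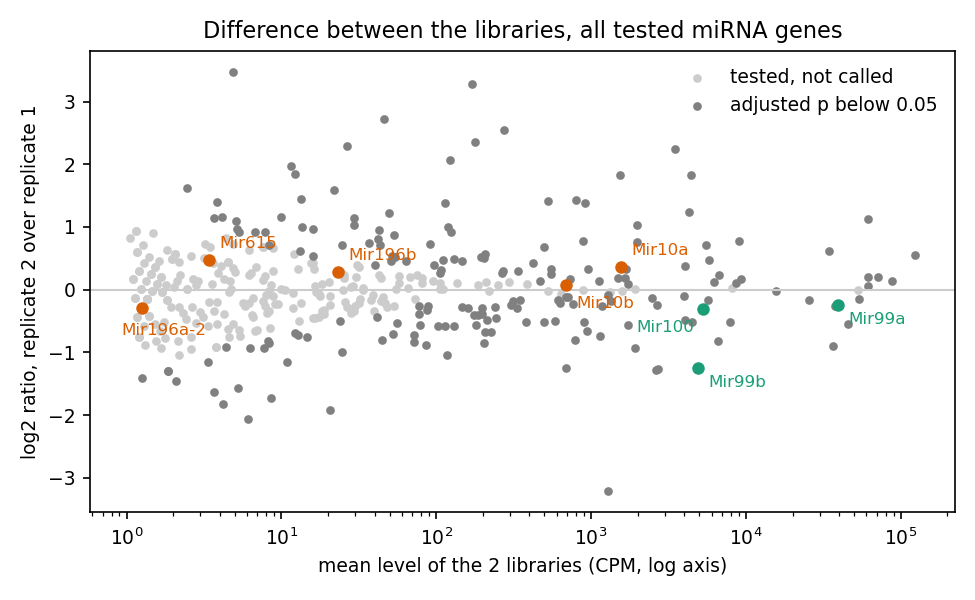
Log2 ratio of replicate 2 over replicate 1 after TMM scaling against mean level (CPM, log axis) for the 412 tested miRNA genes, dark grey where the adjusted p is below 0.05. The tested Hox cluster genes (orange) lie between -0.29 and 0.47, and the related genes outside the clusters (green) between -1.26 and -0.24.

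Markers of several cell types differed between the libraries, in both directions. They are given in CPM without TMM scaling, where Mir10a was at 1434 and 1688 CPM. The 2 smooth muscle genes, both detected, summed to 30137 CPM in replicate 1 and 41747 in replicate 2. Mir143 carried that gap, at 28674 and 40225 CPM, while Mir145a was at 1463 and 1522 CPM. The 6 epithelial genes, of which 4 were detected, summed to 101 and 193 CPM, with Mir205 at 0 reads in replicate 1. The 4 kidney and gut genes, all detected, summed to 84.8 and 120 CPM. Of these, Mir194-2 went from 11.1 to 20.8 CPM and Mir215 from 30.3 to 54.6, while Mir192 stood at 24.9 and 26.1 CPM and Mir194-1 at 18.5 and 18.2. The erythroid genes also split, with a sum of 320 CPM in replicate 1 and 217 in replicate 2. Mir451a was at 288 CPM in replicate 1 and 165 in replicate 2, and Mir144 at 32.1 and 52.4. The 3 heart muscle genes split, with Mir208a at 3885 CPM in replicate 1 and 1485 in replicate 2, Mir208b at 115 and 56.5, and Mir499 at 2732 and 5888. In CPM the endothelial Mir126a was near level, at 87115 and 87787, and so was the leukocyte pair, at 285 and 279. After TMM scaling Mir126a had a log2 ratio of 0.14 and was called higher in replicate 2. The part of any of these in the Mir10a difference was not tested, and in whole tissue fewer cells of a type and less RNA per cell cannot be told apart.

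Strand handling left the counts of these genes unchanged. All 6 had 0 reads on the opposite strand in both libraries, and no miRNA gene is annotated opposite any of them. Their counts in the column that ignores strand were identical to the sense counts.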

How the data were processed

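The authors deposited raw read counts per annotated miRNA hairpin for 2 heart libraries, in 3 columns (strand ignored, and each strand), with 4 summary lines that name no gene. Assembly mm10 and annotation M21 are per the file headers and the deposited descriptions. The aligner, its mismatch limit and any read filter were not given in the sources used here. Column 3 served as the sense column, because its total exceeded that of column 4 in each library. The summary lines, 64.1% and 64.4% of reads, stayed out of library sizes. The authors' counts per hairpin do not separate mature arms.

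All gene IDs matched GENCODE M21. CPM used sense totals. Libraries were compared with scipy 1.17.1 exact binomial tests at TMM sizes from edgeR 4.0.16, with 1 CPM added to both levels for log2 ratios and Benjamini-Hochberg adjustment over all 412 genes. With a single group, edgeR's quasi-likelihood test has no contrast. The procedure was tested on simulated data with counting error alone. Such data cannot show how it behaves where samples also differ in spread. The genes named are the 6 members, the relatives, the 2 nearest in level to each detected member, other miRNA genes in the clusters, and tissue markers. The members and lists were chosen with earlier results of these data known. Alternatives covered scaling (DESeq2 1.42.0 size factors among them), denominator, low-count filter, count column, test, hairpin length, detection minimum and leaving out a replicate. No genome sequence was used here, so matches outside annotated hairpins and transcripts were not searched.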

Additional observations from a re-analysis of the deposited data

How the results depend on the processing

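The summed level of the 6 genes, 2281 CPM, ranged from 2164 to 2397 CPM when either replicate was left out. It became 6749 CPM when the 10 most abundant genes were removed from the total and 2990 CPM with the total of the column that ignores strand, since both settings only shrink the denominator. The Mir10b to Mir10a ratio, 0.447, was 0.402 without replicate 1 and 0.491 without replicate 2, and 0.722 as counts per hairpin base. Of the 5 tested genes 1 was called; 2 were with DESeq2 size factors, which called 45.9% (189) of the 412 tested genes, and 0 with edgeR's exact negative binomial test, where 0 had an unadjusted p below 0.05 and 3 genes in all were called, against 187. By the exact binomial test 208 genes had an unadjusted p below 0.05. Total-count scaling called 199 genes, 39.7% of them higher in replicate 2, against 50.3% with TMM. Detection rose from 4 to 5 genes with a minimum of 1 read. Mir10a was called in the same direction under all 5 alternatives that kept the exact binomial test. The low-count filters and the count column left its reads unchanged, so their agreement adds little. Scaling moved its log2 ratio, from 0.36 to 0.23 with total counts and to 0.39 with DESeq2 size factors. Without either replicate no difference between libraries can be computed. No paired analysis was possible because the labels give a single group. Depth limits Mir615, at 31 reads over both libraries. Mir196a-1 and Mir196a-2, at 2 and 11 reads, may also lack reads of the arm they share, whose number was not tested.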
